A study of Mus musculus with 18 samples.

Results

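The genes of the microRNA (miRNA) machinery were examined as targets of miRNAs in mouse thymocytes. The set held the 4 Argonaute genes (Ago1, Ago2, Ago3, Ago4), the processing enzymes Dicer1, Drosha and Dgcr8, and the silencing scaffolds Tnrc6a, Tnrc6b and Tnrc6c. These 10 genes were taken by name from the 21887 protein-coding spans of the RefSeq gene table (GRCm38.p6), and every chimeric read on the gene's strand inside a span was counted. Of 1190995 chimeric reads in 12 libraries, 5957 (0.5002%) lay on these genes, and 9 of the 10 genes had at least 1 read. The spans of Ago2 (Gm31725), Dgcr8 (Trmt2a, Mir1306, Gm24572), Tnrc6a (Gm39084) and Tnrc6b (Mir5113) overlap those of other listed genes.

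The study used miR-eCLIP, in which UV light of 254 nm crosslinks RNA to Ago2, Ago2 is immunoprecipitated (IP), and the miRNA is ligated to the target fragment held by the same protein. Each chimeric read thus names a miRNA and places its target at a position 1 nt wide. Total thymocytes came from 6-week-old mice, either C57BL/6 (wild type) or miR181a/b-1-KO animals of the line B6.Mirc14tm1.1Ankr (knockout), kept under specific-pathogen-free conditions. From each genotype 3 libraries came from the IP alone and 3 from the IP with an added capture of miR-181 chimeras (called enriched below), which makes 4 groups of 3. The 6 input samples were not analysed here. Total thymocytes mix the maturation stages of the thymus. The deletion removes miR-181a and miR-181b of the Mir181a-1 and Mir181b-1 genes, and the other miR-181 genes of the mouse remain. The labels do not say which samples came from separate animals, so p-values measure the spread between these samples, which may be technical.

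In the miRNA pathway, Drosha with its partner Dgcr8 cuts the primary transcript in the nucleus, and Dicer1 cuts the exported hairpin to a duplex. An Argonaute protein keeps 1 strand and pairs it with targets through the seed (bases 2 to 8). Tnrc6 proteins (also called GW182 proteins) bind Argonaute and recruit the deadenylases that shorten the target's tail. Transcripts of this machinery can themselves be targets, and miR-103, miR-107 and let-7 are known from other systems to act on Dicer1.

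The miRNAs met most often on these genes, or that set a single site apart, are shown 5′ to 3′ with the seed in capitals, as listed by RefSeq (GRCm38.p6). The miR-181-5p family shares the seed ACAUUCA and is the family removed or enriched by the design:
miR-181a-5p: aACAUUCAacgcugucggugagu
miR-181b-5p: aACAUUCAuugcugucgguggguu
miR-181c-5p: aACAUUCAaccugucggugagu
miR-181d-5p: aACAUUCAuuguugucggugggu

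Counted from 1 at the 5′ end of miR-181a-5p, miR-181b-5p differs from it by A9U, C10U and A21G, all outside the seed, and is 24 nt long where miR-181a-5p is 23 nt. The remaining families each have a seed of their own. They are miR-142a-3p, the most frequent miRNA of the Ago2 IP, let-7 and the miR-103 family (both over their share of all reads on Dicer1), the miR-17 family (Tnrc6a and Tnrc6b) and miR-30 (Tnrc6a):
miR-142a-3p: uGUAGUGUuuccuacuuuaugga
let-7a-5p: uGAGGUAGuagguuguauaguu
let-7g-5p: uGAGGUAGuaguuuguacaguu
miR-17-5p: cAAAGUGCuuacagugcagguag
miR-20a-5p: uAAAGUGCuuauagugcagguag
miR-103-3p: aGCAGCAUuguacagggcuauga
miR-107-3p: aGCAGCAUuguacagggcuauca
miR-30c-5p: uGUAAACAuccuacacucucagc
miR-30e-5p: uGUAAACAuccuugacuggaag

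By group, depth ran from 43983 to 117849 chimeric reads for wild type and from 52100 to 67639 for the knockout in the Ago2 IP. The enriched libraries held 194628 to 293149 reads in wild type and 6832 to 19264 in the knockout, where 3 reads correspond to 156 to 439 rpm (reads per 1000000 chimeric reads of the library), so that the knockout enriched values are the least precise. The miR-181-5p family made up 31.1% ± 1.09, 1.38% ± 0.0595, 98.98% ± 0.207 and 71.9% ± 1.24 of reads (SD, n = 3), for Ago2 IP in wild type and knockout, then for enriched libraries in the same order, which follows the labels. Knockout enriched libraries 2 and 3 did not differ beyond sampling noise (chi-square p = 0.158 over 134 genes), unlike the other pairs of that group. They shared 4.93% of the distinct reads of the smaller library, near the 4.18% and 4.0% of the other pairs, and were kept as separate samples. All 14 thymocyte markers had reads (14415 to 18150 rpm per library). Markers of B cells gave 11 reads in all, of myeloid and dendritic cells 43 (Cd68 at 0), of thymic epithelium 2, of erythroid cells 39, and of fibroblasts and endothelium 222, of which 221 were on Pecam1 while Col1a1, Col1a2 and Pdgfra were at 0.

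The machinery genes took under 1% of reads in every group. In the Ago2 IP their share was 0.569% ± 0.0223 for wild type and 0.538% ± 0.0463 for the knockout, and in the enriched libraries 0.468% ± 0.0474 and 0.640% ± 0.0610 (SD, n = 3). Within these reads miR-181 made up 29.7% ± 1.02, 1.91% ± 0.773, 96.5% ± 0.125 and 74.4% ± 4.84, in the order used above. In the wild-type enriched libraries this was below the 98.98% ± 0.207 over all reads. In the 6 Ago2 IP libraries the most frequent partners of the set were miR-142a-3p (671 reads), miR-181a-5p (294), miR-17-5p (117), miR-20a-5p (104), miR-181b-5p (100), let-7a-5p (90), miR-16-5p (85), let-7g-5p (68), let-7f-5p (52), miR-93-5p (51), miR-30c-5p (46) and miR-106a-5p (40). Reads per gene depend on the level and length of the transcript as well as on contacts, and no RNA level was measured here, so no order between genes is drawn. For the same reason fewer contacts and less RNA of a gene cannot be told apart.

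**Figure D1:**
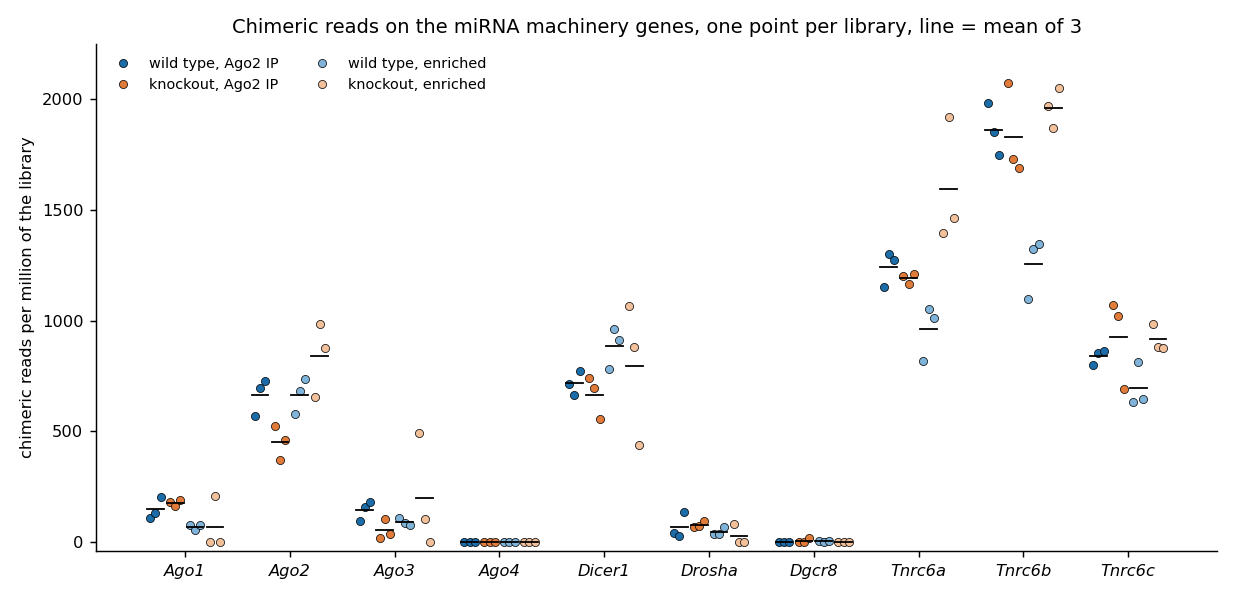
Chimeric reads on each machinery gene, in rpm (vertical axis), for 4 groups of 3 libraries. Each point is 1 library and each line the mean of 3. Ago4 is at 0 in every library. Ago2 is lower in the knockout than in the wild-type Ago2 IP without overlap, as 13.6% of genes tested are, and did not pass the test.

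Ago2, the Argonaute precipitated in this assay and the one able to cut its targets, was itself a target, and its reads were rich in miR-181. It spans chr15:73101625-73184947 on the minus strand, a strand taken from the reads (746 on the minus and 2 on the plus strand). The Ago2 IP gave 67, 48 and 32 reads in wild type and 32, 25 and 24 in the knockout. Enriched libraries gave 169, 173 and 143 reads in wild type, and 8, 19 and 6 in the knockout. In the Ago2 IP the wild-type mean was 664 ± 84.0 rpm and the knockout mean 452 ± 78.7 rpm (SD, n = 3). Every knockout library lay below every wild-type library, as in 13.6% of the 1549 genes tested. Ago2 did not pass the test of that comparison (adjusted p = 0.113, edgeR).

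In the wild-type Ago2 IP, miR-181 accounted for 29 of 67, 23 of 48 and 18 of 32 of the Ago2 reads, or 43.3%, 47.9% and 56.3%. Pooled, this was 47.6% (95% Wilson interval 39.7 to 55.7, for counting error only), above the 30.8% of all reads of these libraries, and the share was higher in 3 of 3. In the knockout the pooled share was 6.17% (2.67 to 13.6; 5 of 81 reads). Reads of other miRNAs on Ago2 numbered 77 in wild type and 76 in the knockout. Among those, miR-142a-3p gave 53 reads, 23.2% of the Ago2 reads over both genotypes against 33.0% of all reads, and was below the library's share in 6 of 6 libraries. Let-7 gave 38 reads (16.7% against 13.7%) and the miR-17 family 27 (11.8% against 12%).

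Reads on Ago2 gathered near the 3′ end of the span, where sites, meaning reads joined when neighbours lay at most 20 nt apart, are numbered by read count. Exon, intron and UTR boundaries were not analysed here, so positions are given relative to the span. The site Ago2-1 (chr15:73101675-73101908, minus strand, 50 nt from the 3′ end) held 197 reads, of which 160 were miR-181, 25 miR-142a-3p and 12 let-7. In the Ago2 IP it had 22, 9 and 11 reads in wild type, and 7, 6 and 4 in the knockout. The site Ago2-3 (chr15:73102202-73102613) held 120 reads, 111 of them miR-181, with 6, 7 and 5 reads in the wild-type and 1, 0 and 1 in the knockout Ago2 IP.

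The site Ago2-2 (chr15:73103974-73104118, 2349 nt from the 3′ end) held 152 reads, 151 of them miR-181, and was the 1 site of those plotted where miR-181b-5p prevailed over miR-181a-5p. In the 3 wild-type enriched libraries it had 9 reads of miR-181a-5p and 32 of miR-181b-5p, then 16 and 24, then 15 and 17. The miR-181b-5p share of the 2 miRNAs was therefore 78.0%, 60% and 53.1%, and 64.6% pooled (55.4 to 72.8), against 18.4% over all reads of these libraries. In the wild-type Ago2 IP the share was 66.7% (45.4 to 82.8; 14 of 21 reads) against 22.9% over all reads. The 4 knockout Ago2 IP reads left at this site were all miR-181b-5p. At the neighbouring Ago2-1 the share was 6.40% (3.28 to 12.1) and at Ago2-3 14.4% (8.80 to 22.8), so sites of 1 transcript differed in which family member they carried.

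**Figure D2:**
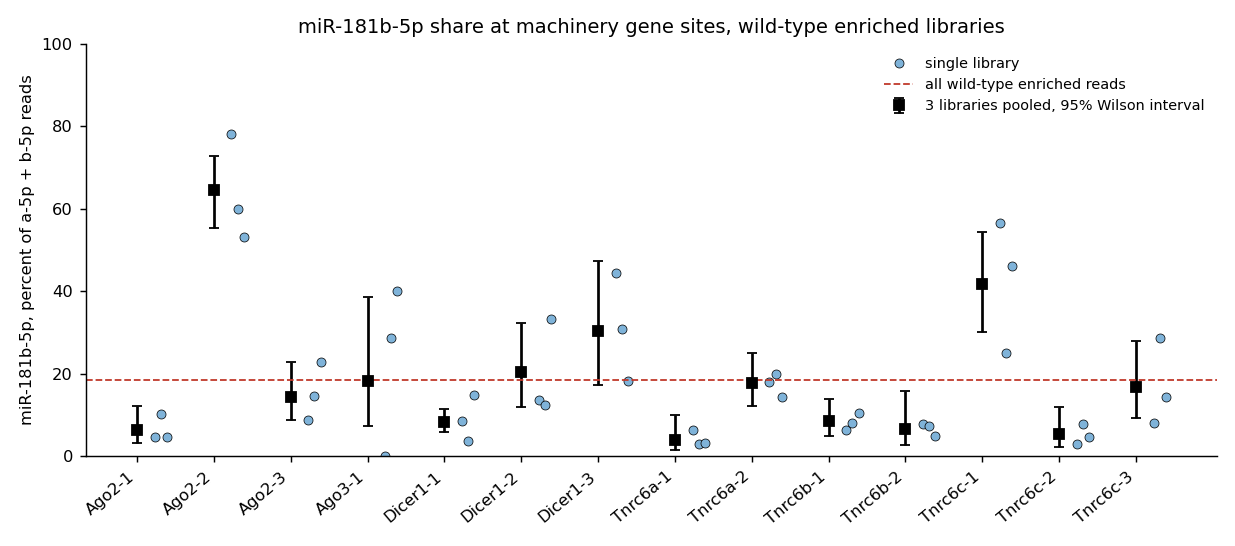
Share of miR-181b-5p among miR-181a-5p and miR-181b-5p reads (vertical axis, percent) at the sites of machinery genes with at least 20 such reads in the wild-type enriched libraries. Squares are the 3 libraries pooled with 95% Wilson intervals, circles single libraries, and the dashed line all reads of these libraries (18.4%). Ago2-2 lies at 64.6%, and Tnrc6c-1 at 41.7%.

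Reads on the same strand went on past the annotated end of Ago2. In the 6000 nt beyond the span there were 305 reads, the last at 5780 nt, with 30, 22 and 16 in the Ago2 IP of wild type and 11, 15 and 10 in that of the knockout. Enriched libraries had 69, 74 and 52 in wild type and 1, 4 and 1 in the knockout. The first 1000 nt held 167 of these, 159 with miR-181, and a site at chr15:73101161-73101276 alone held 134, of which 121 were miR-181a-5p. From 6001 to 8000 nt there were none. Across 2217 protein-coding genes with at least 100 reads and no same-strand neighbour within 1000 nt, the median of reads in the next 1000 nt was 0, and 66.2% had none. Ago2 was the 1 gene of that set with as many as 167. The gene-level values of Ago2 above do not include these reads.

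**Figure D3:**
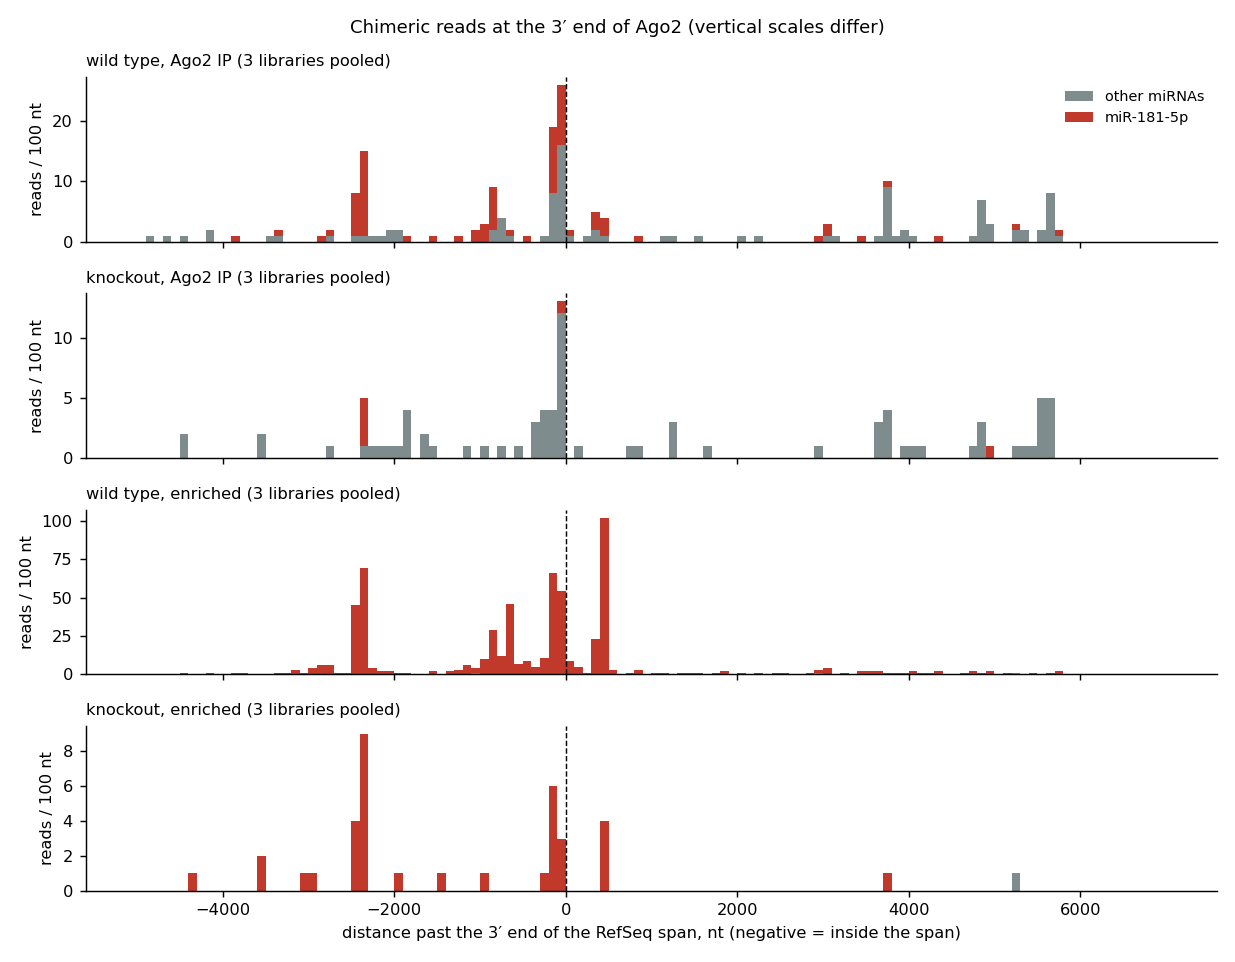
Chimeric reads per 100 nt around the 3′ end of the Ago2 span (dashed line at 0; negative distances lie inside the span), for the 4 groups with 3 libraries pooled and each on its own vertical scale. Red is miR-181-5p and grey other miRNAs. Wild-type enriched peaks lie near -2400, -700, -200 and 400 nt, and past 3000 nt the Ago2 IP reads are mostly of other miRNAs.

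Ago1 and Ago3, Argonautes without strong cutting activity in mammals, carried few reads. Ago1 (chr4:126435012-126468707, minus strand) had 13, 9 and 9 Ago2 IP reads in wild type and 11, 11 and 10 in the knockout, with 23, 14 and 15, then 0, 4 and 0, in their enriched libraries. In the wild-type Ago2 IP 7 of its 31 reads were miR-181 (22.6%, 11.4 to 39.8), and 0 of 32 were in the knockout (upper bound 10.7%). Ago3 (chr4:126326994-126431670, minus strand) had 11, 11 and 8 reads in the wild-type and 1, 7 and 2 in the knockout Ago2 IP, then 32, 22 and 15, and 6, 2 and 0 in the enriched libraries. The knockout Ago2 IP libraries thus lay below the wild-type ones in reads of Ago3, although in rpm (93.3 to 182 against 16.5 to 103) the groups overlapped. Ago3 missed the count filter of the knockout comparison, so that change was not tested. Its single site with at least 10 reads (chr4:126334134-126334189) held 24 reads, 23 of them miR-181. Ago1 had 3 such sites, of 13, 11 and 10 reads, between 3377 and 4164 nt from its 3′ end, led by miR-181, the miR-17 family and miR-142a-3p.

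Ago4 (chr4:126489487-126533586) had 0 reads in all 12 libraries. A count of 0 allows up to 3 reads, which is 13.0 rpm over the pooled wild-type Ago2 IP and 4.05 rpm over the pooled wild-type enriched libraries.

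Dicer1, the enzyme that cuts hairpin precursors to mature miRNAs, was met most often by let-7 in the Ago2 IP, with relatively many reads of miR-103 and few of miR-142a-3p. The gene spans chr12:104687740-104751968 on the minus strand. It had 84, 46 and 34 reads in the wild-type and 45, 47 and 29 in the knockout Ago2 IP, 229, 244 and 178 in the wild-type enriched and 13, 17 and 3 in the knockout enriched libraries. Let-7 gave 31, 13 and 15 of the wild-type and 23, 23 and 12 of the knockout Ago2 IP reads. That is 36.9%, 28.3% and 44.1% against 11.5% to 11.7% of all reads in the wild-type libraries, and 51.1%, 48.9% and 41.4% against 15.7% to 17.2% in the knockout libraries. Pooled over the 6 libraries, let-7 made up 41.1% of Dicer1 reads (35.5 to 46.8; 117 of 285) against 13.7% of all reads. By number of let-7 reads Dicer1 was 22nd of 7051 genes with any.

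The miR-103 family, here miR-103 and miR-107, made up 0.526% of Ago2 IP reads but 7.02% of those on Dicer1 (4.59 to 10.6; 20 reads), above the library's share in 6 of 6 libraries. With 4, 3, 1, 5, 6 and 1 reads the single libraries were sparse, yet no other gene of the 1279 with a read of this family had more. miR-142a-3p gave 12.6% of Dicer1 reads against 33.0% of all reads, and was below in 6 of 6. The miR-17 family gave 3.51% against 12%, also below in 6 of 6. These are shares of counts, and a high share of 1 family lowers those of the rest.

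Most of these contacts lay in 1 cluster, Dicer1-1 (chr12:104702538-104703093, minus strand, 14798 nt from the 3′ end), with 564 reads. It held 90 of the 117 let-7 and 18 of the 20 miR-103 reads of the Ago2 IP on Dicer1. Over all libraries its reads of miR-181 (420), let-7 (95) and the miR-103 family (21) overlapped but differed in their median position, which was 104702968 for miR-103, 104702758 for let-7 and 104702698 for miR-181, in the order of transcription. Between 100 and 150 nt from its 5′ edge 16 reads were miR-103 and 20 miR-181, and none of the miR-103 family lay further on. Between 300 and 350 nt 28 reads were let-7 and 37 miR-181, and between 400 and 450 nt 201 were miR-181 and 7 let-7. Wild-type Ago2 IP libraries had 54, 27 and 22 reads at Dicer1-1 and knockout libraries 27, 25 and 12, of which 31 of 103 were miR-181 in wild type and 0 of 64 in the knockout. Over the whole gene 0 of 121 knockout Ago2 IP reads were miR-181 (upper bound 3.08%).

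**Figure D4:**
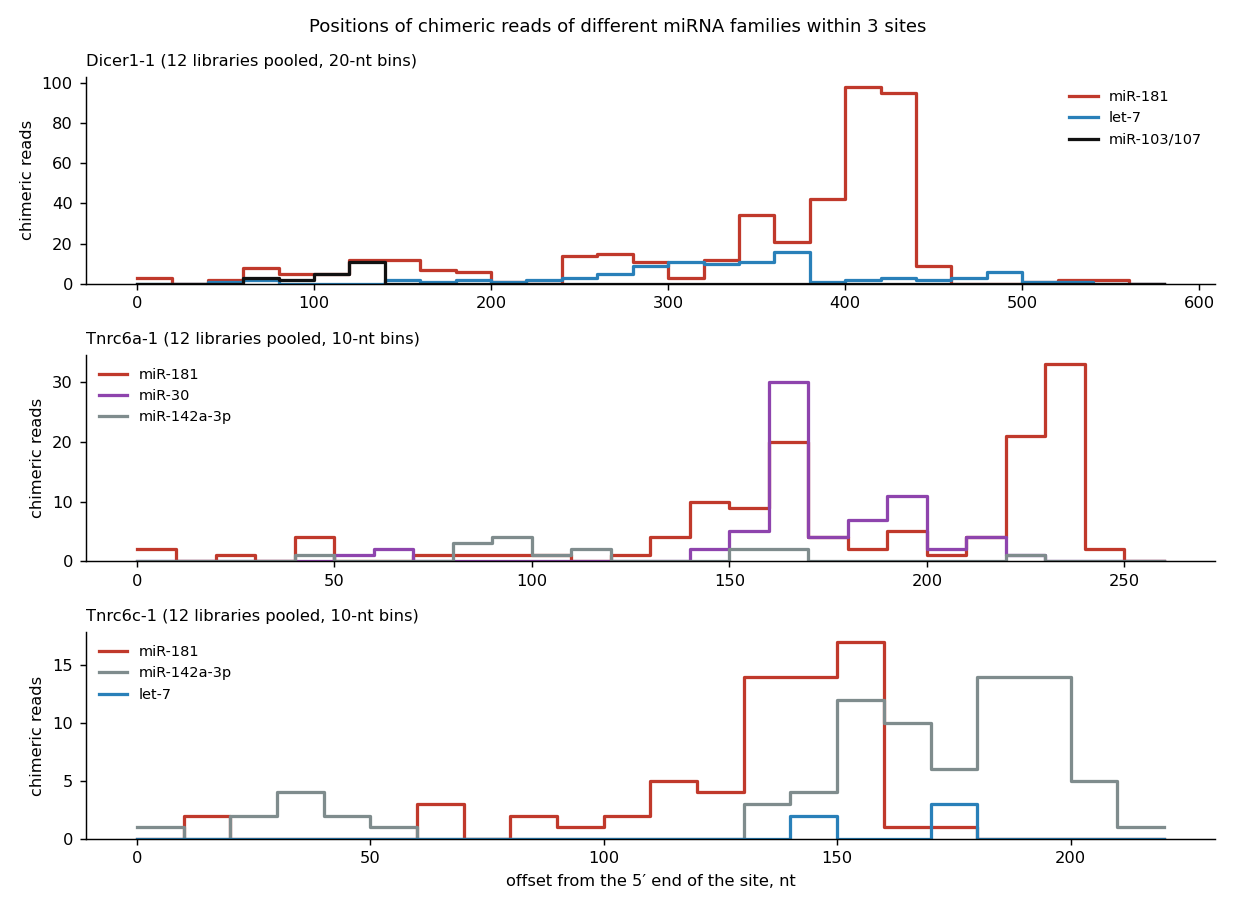
Chimeric reads (vertical axis) by offset from the 5′ end of 3 sites (horizontal axis, nt), by miRNA family, with 12 libraries pooled. In Dicer1-1 the miR-103 reads precede those of let-7, and the miR-181 peak lies after 400 nt. In Tnrc6a-1 the miR-30 reads gather near 165 nt, where miR-181 has reads too, and the highest miR-181 peak follows near 233 nt. In Tnrc6c-1 those of miR-142a-3p extend past those of miR-181.

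The other Dicer1 sites were smaller. Dicer1-2 (chr12:104722059-104722230) held 66 reads, 64 of them miR-181, and Dicer1-3 (chr12:104694553-104694739) 62 reads, of which 38 were miR-181 and 9 miR-142a-3p. The nuclear enzyme Drosha (chr15:12824804-12935291, plus strand) had 5, 2 and 6 reads in the wild-type and 4, 5 and 5 in the knockout Ago2 IP, 11, 9 and 13 in the wild-type enriched and 1, 0 and 0 in the knockout enriched libraries. No site of Drosha reached 10 reads. Dgcr8, the RNA-binding partner of Drosha (chr16:18253948-18289251, minus strand), had 3 reads in all, too few to compare.

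The 3 Tnrc6 genes, scaffolds between Argonaute and the deadenylases, held 1265 (Tnrc6a), 1764 (Tnrc6b) and 913 reads (Tnrc6c) over the 12 libraries. Tnrc6a (chr7:123031101-123195296, plus strand) had 136, 90 and 56 reads in the wild-type and 73, 79 and 63 in the knockout Ago2 IP, 240, 267 and 197 in the wild-type enriched and 17, 37 and 10 in the knockout enriched libraries. Its partners were rich in the miR-17 family, which gave 20.6%, 22.2% and 21.4% of the wild-type and 26.0%, 32.9% and 30.2% of the knockout Ago2 IP reads. Pooled this was 24.9% (21.3 to 28.9) against 12% of all reads, and above in 6 of 6 libraries. miR-30 was also above in 6 of 6 (6.64%, 4.77 to 9.18, against 2.95%), while let-7 was below in 6 of 6 (6.04% against 13.7%). miR-181 gave 22.0% (17.5 to 27.2) in the wild-type Ago2 IP, below the share of all reads in 3 of 3.

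Sites of Tnrc6a differed in their leading miRNA. Tnrc6a-3 (chr7:123193509-123193600, 1696 nt from the 3′ end) was a miR-17 family site, with 53 of 74 reads from that family, of which 19 were miR-17-5p and 18 miR-20a-5p. Its Ago2 IP reads were 12, 10 and 8 in wild type and 13, 15 and 7 in the knockout. Tnrc6a-2 (chr7:123182265-123182448) held 195 reads, 153 of miR-181 and 30 of miR-142a-3p. Tnrc6a-1 (chr7:123194242-123194486, 810 nt from the 3′ end) held 223 reads, with 127 of miR-181 and 69 of miR-30.

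At Tnrc6a-1 many enriched reads came from miRNAs outside the miR-181 family, mainly miR-30. In the wild-type enriched libraries, where 98.98% of reads were miR-181, this site had 33, 35 and 33 miR-181 reads and 20, 19 and 20 reads of other miRNAs, 14, 16 and 15 of them miR-30. These were 14.2% (45) of the 318 miR-30 reads in those 3 libraries, against 0.224% (13 of 5797) in the wild-type Ago2 IP. They were 45 distinct combinations of position, miRNA and library, and 4 members of the family (miR-30b, miR-30c, miR-30d and miR-30e) were among them. In the Ago2 IP the site went from 14, 14 and 6 reads in wild type to 2, 0 and 3 in the knockout. Its miR-30 reads went from 4, 6 and 3 to 0, 0 and 1. Its reads of all miRNAs outside the miR-181 family, those of miR-30 included, went from 22 to 3. The miR-30 share of all reads was nevertheless higher in the knockout (3.41% to 3.70%) than in wild type (2.50% to 2.53%).

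Tnrc6b (chr15:80711313-80941086, plus strand) had 234, 128 and 77 reads in the wild-type and 126, 117 and 88 in the knockout Ago2 IP, 322, 336 and 262 in the wild-type enriched and 24, 36 and 14 in the knockout enriched libraries. The miR-17 family gave 15.4%, 18.0% and 16.9% of the wild-type and 21.4%, 18.8% and 30.7% of the knockout Ago2 IP reads, pooled 19.2% (16.6 to 22.2) against 12%, and was above in 6 of 6. Tnrc6b-3 (chr15:80798693-80798784) held 77 reads of this family among 101, far from the 3′ end (142302 nt) and 83 nt past a listed transcription start. Its Ago2 IP reads were 29, 11 and 9 in wild type and 16, 15 and 13 in the knockout. Tnrc6b-1 (chr15:80930717-80930903) was a miR-181 site, with 203 of 217 reads. Tnrc6b-2 (chr15:80940945-80941039, 47 nt from the 3′ end) held 80 reads of miR-181 and 19 of miR-142a-3p.

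Tnrc6c (chr11:117653703-117763439, plus strand) had 94, 59 and 38 reads in the wild-type and 65, 69 and 36 in the knockout Ago2 IP, 185, 206 and 126 in the wild-type enriched and 12, 17 and 6 in the knockout enriched libraries. Its leading partner was miR-142a-3p, with 136 of 361 Ago2 IP reads (37.7%, 32.8 to 42.8, against 33.0%) and above the library's share in 5 of 6. The same miRNA had the most Ago2 IP reads on Tnrc6a (156) and Tnrc6b (246). The site Tnrc6c-1 (chr11:117721504-117721714) held 74 of the 136 on Tnrc6c, with 79 miR-142a-3p and 66 miR-181 reads over all libraries. There the miR-181b-5p share was also high, 41.7% pooled (30.1 to 54.3) and 56.5%, 25% and 46.2% in the 3 wild-type enriched libraries. Tnrc6c-2 (chr11:117752973-117753012) held 111 reads and Tnrc6c-3 (chr11:117749733-117749811) 81, of which 109 and 74 were miR-181. At Tnrc6c-2, 52.3% of reads repeated the position, strand and miRNA of another read of the same library.

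**Figure D5:**
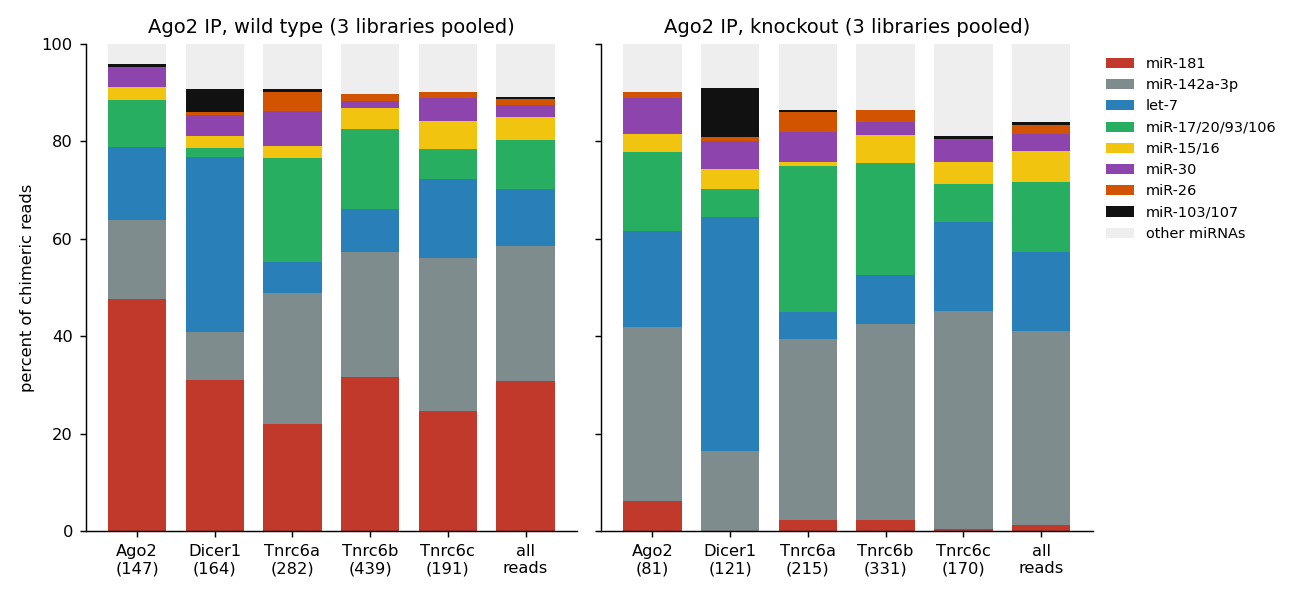
Percent of chimeric Ago2 IP reads (vertical axis) from each miRNA family on 5 machinery genes and over all reads, in wild type (left) and knockout (right), with 3 libraries pooled and the number of reads in brackets. The miR-181 share is 47.6% on Ago2 in wild type, let-7 leads on Dicer1, and the miR-17 family is widest on Tnrc6a.

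Loss of the Mir181a-1 and Mir181b-1 genes was compared in the Ago2 IP, which asks whether total contacts on a machinery gene change when its miR-181 contacts go. None of the 6 members tested changed at an adjusted p of at most 0.05 (edgeR quasi-likelihood test with Benjamini-Hochberg adjustment over 1549 genes, of which 9.88% were called). At an unadjusted p of 0.05, 1 member passed, which was Ago2, and DESeq2 also called 0. The median log2 fold change of the 6 was -0.07, against 0.01 over all genes tested. For Ago2 the log2 fold change was -0.54 (SE 0.22, adjusted p = 0.113), and the groups did not overlap, as in 13.6% of genes in that direction. With the span extended by the 6000 nt past its end, an alternative chosen after those reads were seen, it was -0.57 (SE 0.19, adjusted p = 0.0375), with 10.1% of genes called. The other members had log2 fold changes of 0.36 for Ago1 (SE 0.39), -0.11 for Dicer1 (0.20), -0.07 for Tnrc6a (0.15), -0.06 for Tnrc6b (0.13) and 0.15 for Tnrc6c (0.18). The 95% intervals ran from -0.37 to 0.23 for Tnrc6a and from -0.32 to 0.19 for Tnrc6b.

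Among chimeras of miRNAs other than miR-181, 0 of 6 members were called, and 0 passed at an unadjusted p of 0.05 (edgeR), with 1.79% of 1340 genes called and 0 members called by DESeq2. The log2 fold change of Ago2 on these reads was -0.18 (adjusted p = 0.864).

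At the level of sites, Tnrc6b-1 fell in the knockout Ago2 IP. Its reads were 23, 13 and 7 in wild type and 2, 2 and 0 in the knockout, or 180.8 ± 19.1 against 20.8 ± 18.1 rpm (SD, n = 3), without overlap. The log2 fold change was -3.10 (SE 0.54, adjusted p = 2.54e-07, edgeR). Tnrc6b-1 was the 1 called of 6 member clusters tested, where 36.3% of 251 clusters were called and 25.5% were called lower. Since 35 of its 43 wild-type Ago2 IP reads were miR-181, a fall there follows from the design. The site also met the count filter through the wild-type libraries alone, so its p-value is no independent support. Without wild-type replicate 1, or without wild-type replicate 2, Tnrc6b-1 missed the count filter and was not tested. Without replicate 2, Ago2-1 was called instead (-1.41, adjusted p = 0.0186, edgeR), where 26.8% of 284 clusters were. Ago2-1 also met the count filter there through the wild-type libraries alone. Tnrc6b as a gene was not called, with 139 miR-181 and 300 other reads in wild type and 8 and 323 in the knockout. With no filter, 2 member clusters were called where 0.0829% of 248449 clusters were, Tnrc6b-1 and Tnrc6a-1 (-2.71, adjusted p = 0.0255). Sites led by other miRNAs (Tnrc6a-3, Tnrc6b-3 and Tnrc6c-1) were tested and were not called.

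The same genotypes were compared in the enriched libraries, where miR-181 made up 98.98% of wild-type but 71.9% of knockout reads. The comparison thus mixes miR-181 contacts with those of other miRNAs. None of 6 members was called, where 4.13% of 2056 genes were, and 1 (Tnrc6a) passed at an unadjusted p of 0.05 (edgeR), while DESeq2 called 0. In rpm, Tnrc6a, Tnrc6b and Tnrc6c were higher in every knockout than in every wild-type library, as 16.2% of genes were. Their means were 1593 ± 286 against 961 ± 125, 1962 ± 90.4 against 1257 ± 137, and 915 ± 60.3 against 697 ± 100 rpm (SD, n = 3, knockout against wild type). Pooled, miR-181 made up 56.3%, 75.7% and 77.1% of these knockout reads, against 89.6%, 97.7% and 98.1% in wild type. The median log2 fold change of the members was 0.19, against -0.16 over all genes, and scaling by library size alone moved the latter to 0.01 and the split of called genes from 24 higher and 61 lower to 34 and 32. Without wild-type replicate 1, Tnrc6a was called (0.60), where 20.1% of 319 genes were. Without wild-type replicate 3, Tnrc6a (0.72) and Tnrc6b (0.57) were called, where 17.9% of 307 genes were. These knockout values rest on 10 to 37 reads per library for Tnrc6a.

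Enriched and Ago2 IP libraries of wild type were compared to ask which members gain weight among miR-181 contacts. Dicer1 rose, at 886 ± 94.0 rpm in the enriched against 717 ± 53.7 in the Ago2 IP libraries (SD, n = 3), with a log2 fold change of 0.67 (SE 0.15, adjusted p = 0.000634). Counting repeats of a read once lowered the change to 0.38 (adjusted p = 0.0384). Dicer1 was the 1 called of 7 members tested, where 33.9% of 2934 genes were called, and 19.1% were called higher. Ago2 did not pass, at 577 to 735 rpm against 569 to 728 and a log2 fold change of 0.39 (SE 0.16, adjusted p = 0.0581, edgeR). Ago1, Ago3 and the 3 Tnrc6 genes were not called either. In rpm, Dicer1 was higher without overlap, as 15.1% of genes were, and Ago1, Tnrc6a and Tnrc6b were lower without overlap, as 36.8% were. The latter 3 were not called by the test, whose scaling differs from rpm. Ago2 was called in addition without wild-type Ago2 IP replicate 3 (0.47, with 27.6% of genes called) or without enriched replicate 1 (0.51, with 31.5%). The same held with no count filter (0.57, with 8.36% of genes called) and with replicate number as a block (0.37, with 38.3%). On chimeras of miRNAs other than miR-181, where 2.36% of 254 genes were called, Tnrc6a was the 1 called of 4 members tested (2.67, SE 0.26, adjusted p = 1.01e-08), and 59 of its 73 such enriched reads lay at Tnrc6a-1. The members' median over all chimeras was -0.01 and that of all genes -0.02, which scaling by library size alone moved to -0.17. It moved the split of called genes from 559 higher and 436 lower to 457 and 620, and then Tnrc6b was called lower (-0.37).

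Within the members, 8 of 14 clusters tested were called in this comparison, where 56.3% of 1200 clusters were, 360 clusters (30%) higher and 316 (26.3%) lower. Scaling by library size alone moved that split to 655 higher and 256 lower, and no count filter to 1755 and 336. The members' own split was 1 higher and 7 lower, 1 and 4 by library size alone, and 13 and 3 with no filter. The largest falls were at clusters led by other miRNAs in the Ago2 IP, with log2 fold changes of -6.19 at Tnrc6b-3 (SE 0.53, 49 against 3 reads), -4.27 at Tnrc6a-3 (SE 0.48, 30 against 8 reads), -3.86 at another Tnrc6a cluster (chr7:123192942-123193121), led by miR-20a-5p (SE 0.46, 28 against 10 reads), and -1.73 at Tnrc6c-1 (SE 0.37, 40 against 64 reads). The capture takes miR-181 chimeras, so falls at clusters led by other miRNAs follow from the design. Apart from Tnrc6c-1, these clusters met the count filter through the Ago2 IP libraries alone. With no count filter Tnrc6c-1 was not called (-0.06). Tnrc6c-2 rose (1.29, SE 0.53, 7 against 95 reads, adjusted p = 0.0374), but lost its call without any 1 of the 3 Ago2 IP libraries (1.0 to 1.59). That cluster met the count filter through the enriched libraries alone. Ago2-1 (-0.84), Dicer1-1 (-0.56) and Tnrc6b-2 (-1.10) were lower at adjusted p-values of 0.0263 to 0.0383, relative to a median of 0.35 over all clusters, which scaling by library size alone moved to 1.112. Under that scaling they stood at -0.06, 0.21 and -0.33 and were not called. All 3 calls were lost without Ago2 IP replicate 1 or enriched replicate 1, and at least 1 of them without each of the other 4 libraries (-0.34 to -1.22). Without Ago2 IP replicate 1, 4 of 19 member clusters tested were called, where 698 of 1871 clusters were. Without enriched replicate 1, 5 of 13 were, where 727 of 1090 clusters were called.

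In the knockout, Ago2 and Tnrc6a rose in the enriched libraries, the 2 called of 5 members tested, where 21.0% of 775 genes were called and 15.2% were called higher. Both were also higher in rpm without overlap, as 16.8% of genes were. Ago2 stood at 840 ± 168 against 452 ± 78.7 rpm (SD, n = 3), with a log2 fold change of 1.07 (SE 0.33, adjusted p = 0.0108). All 33 enriched Ago2 reads of the knockout were miR-181, and 13 of them lay at Ago2-2. Its call was lost without knockout Ago2 IP replicate 2 (0.76, adjusted p = 0.0689), without knockout enriched replicate 2 (0.76, adjusted p = 0.378) or with no count filter (0.47, adjusted p = 0.646). Tnrc6a stood at 1593 ± 286 against 1193 ± 21.8 rpm, with a log2 fold change of 0.62 (SE 0.23, adjusted p = 0.0421), and lost its call without any 1 of the 6 libraries (0.30 to 0.73), with DESeq2 (0.64, adjusted p = 0.107), with library sizes alone (0.53, adjusted p = 0.0774) and with no count filter (0.01). Of its 64 knockout enriched reads, 24 lay at Tnrc6a-1, 12 of them not miR-181.

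A list of 67 further genes of the pathway was counted in the same fits, for processing, export and loading (22 genes), for silencing, deadenylation and decay (35) and for turnover of miRNAs and Argonaute (10). All 67 had reads. Values are mean ± SD over 3 libraries in rpm. In the knockout against wild-type Ago2 IP, 26 were tested, and 3 were called (11.5%, against 9.88% of all genes), of which 1 rose and 2 fell. Hspa8, a chaperone that helps load Argonaute, fell from 665 ± 96.9 in wild type to 38.2 ± 24.5 in the knockout. With 7 reads over the 3 knockout libraries, Hspa8 met the count filter through wild type alone, so its call is no independent support. Cnot2, a subunit of the CCR4-NOT deadenylase, fell from 738 ± 130 to 444 ± 16.5, and the ubiquitin ligase Cnot4 rose from 304 ± 30.1 to 513 ± 58.2. In the enriched libraries 31 were tested and 2 were called (6.45%, against 4.13% of all genes). These were Hspa8, which fell from 3710.5 ± 374 to 721 ± 164, and Cnot1, the scaffold of CCR4-NOT, which fell from 1179 ± 72.7 to 691 ± 126. In the enriched against Ago2 IP comparison of wild type, 41 were tested and 14 called (34.1%, against 33.9% of all genes), of which 5 rose and 9 fell. Those of smallest p were Hspa8 and Cnot1, which rose, Zfp36, an RNA-binding protein that drives decay (65.6 ± 11.8 against 258 ± 86.5), the RNA helicase Ddx17, which rose (429 ± 111 against 243 ± 70.7), and the deadenylase subunit Pan3 (363 ± 4.54 against 811 ± 63.5). In the knockout, 14 were tested and 3 called (21.4%, against 21.0% of all genes). Hspa8 rose, and the helicase Ddx5 (322 ± 142 against 963 ± 298) and the deadenylase Cnot6l (283 ± 33.6 against 759 ± 65.3) fell. Here Hspa8 met the count filter through the enriched libraries alone.

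Over the 12 libraries, the genes whose level (log2 of rpm plus 1) was most like that of Tnrc6b, the member with most reads, were Slc38a10 (Pearson r = 0.91), Scfd2 (0.90) and Lcorl (0.90), among 2323 genes with at least 100 reads. The points share the 4 groups and the depth of their libraries.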

How the data were processed

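A company made the libraries and read them as 150-nt pairs, per the labels' protocols. Bowtie2 2.4.5, STAR 2.7.10, SAMtools 1.11, UMI-tools 1.1.1 and bedtools 2.30.0 and the builds mm10 and GRCm38.p6 are named in the submitters' processing notes, without roles. The deposited files hold counts, with 1 line per chimeric read and nothing scaled or pooled. Reads on each gene's strand were counted over RefSeq spans (strand from a promoter table for 9 members). The spans hold introns, and reads inside 2 spans counted for both. Counts were fitted across all genes or clusters with edgeR 4.0.16 (R 4.3.3; quasi-likelihood, TMM, and filterByExpr at its minimum of 10), each fit on its 2 groups, with a call at an adjusted p of at most 0.05. As an alternative the same counts went through DESeq2 1.42.0. Counting used Python 3.11.15. Members and lists were chosen with earlier results of these data known. The text names all 10 members, at most 3 sites of at least 10 reads per gene, and the miRNAs with most reads. In tests on simulated data with changed genes, 72% of 2-fold and 99% of 4-fold changes were called in the knockout against wild-type Ago2 IP comparison over 1549 genes, and 18% and 68% in the enriched one over 2056. Repeats of a read in position, strand and miRNA were kept (3.24% to 34.1% of a library), since it is not known here whether they are separate molecules. Intervals and floors cover counting error only.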

Additional observations from a re-analysis of the deposited data

Results flagged for a closer look

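Past the 3′ end of the Ago2 span, 167 reads lay on its strand within 1000 nt, a region outside the gene-level counts. On the strand opposite to Dicer1, 6 reads were found, all of miR-181a-5p at the position 104710646 (1 from the Ago2 IP and 5 from the enriched libraries of wild type). For Tnrc6a, the enriched against Ago2 IP comparison in rpm ran in opposite directions in the 2 genotypes. Coded by direction it was -1 (lower, without overlap) in wild type, at 961 ± 125 against 1243 ± 78.8 rpm, and 1 (higher, without overlap) in the knockout, at 1593 ± 286 against 1193 ± 21.8 rpm (SD, n = 3 each). Of all genes tested, 36.8% were lower without overlap in wild type and 16.8% higher without overlap in the knockout. In the edgeR fits, whose scaling differs from rpm, the log2 fold change of Tnrc6a was -0.01 (SE 0.14, not called) in wild type. It was 0.62 (SE 0.23) in the knockout, a call lost when any single library was left out. The difference between genotypes was not tested.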

How the results depend on the processing

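Depth limits the knockout enriched libraries most. Members called in the knockout against wild-type Ago2 IP comparison went from 0 to 1 with the Ago2 span extended. In the knockout against wild-type enriched comparison they went from 0 to 1 with no filter (Dicer1) and to 1 on chimeras of other miRNAs (4 genes tested), and to 0 to 2 without single replicates. In the enriched against Ago2 IP comparison of wild type they went from 1 to 2 with library sizes alone, with no filter, with repeats counted once and with the replicate block, and to 1 to 2 without single replicates. In the same comparison of the knockout they went from 2 to 1 with DESeq2, library sizes alone and the replicate block, to 0 with no filter and on chimeras of other miRNAs, and to 0 to 1 without single replicates. Member clusters called in the knockout against wild-type Ago2 IP comparison went from 1 to 2 with no filter and to 0 to 1 without single replicates. Those called in the enriched against Ago2 IP comparison of wild type went from 8 to 5 with library sizes alone, to 16 with no filter, to 5 with joining up to 50 nt and to 4 to 7 without single replicates. The sign turned for Dicer1 (-0.19 to 0.00341) and Tnrc6b (-0.16 to 0.00195) in the knockout Ago2 IP comparison without single replicates. In the enriched against Ago2 IP comparison of the knockout, Ago2 had 0 enriched and 76 Ago2 IP chimeras of other miRNAs, so its fitted value there (-6.77) is set against a group at 0 and is no bound. In the comparison of clusters in wild type the sign turned for Dicer1-1 with library sizes alone (0.21) and no filter (1.14), and for Tnrc6b-2 (0.57) and Ago2-1 (0.85) with no filter, as it did for Ago2-2 (1.58), Ago2-3 (1.65) and Tnrc6a-1 (1.45), which were then called, and for Tnrc6a-2 (1.07) and Tnrc6b-1 (1.14), which were not. The causes were not tested. Same-numbered samples did not all correlate above 0.1 in any comparison (-0.11 to 0.11), and the main fits did not pair them. In the enriched against Ago2 IP comparison of the knockout, every same-numbered pair (0.03 to 0.09) lay above every other pair (at most 0.01). Whether the numbers pair samples is therefore not settled. In the knockout the block ended the call of Tnrc6a (adjusted p = 0.0508) and not that of Ago2, and in wild type it added Ago2. It left 0 members called in both knockout comparisons and 1 member cluster in the Ago2 IP.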

Other observations

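In the wild-type enriched libraries, reads of miRNAs outside the miR-181 family fell on 6292 clusters. Tnrc6a-1, with 59 of 7778 such reads, ranked 3rd among them. Knockout and wild-type enriched libraries shared only 4 genes with enough of these chimeras to be tested, and Tnrc6a, the 1 member among them, was lower in the knockout relative to the other 3 (log2 fold change -1.83, adjusted p = 0.00554, edgeR). Per chimeric read of the library the direction was opposite, at 85.3, 98.6 and 118 rpm of such reads on Tnrc6a in wild type and 656, 831 and 585 rpm in the knockout. The site held 12 such reads in the knockout enriched libraries, 10 of them miR-30.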
